A study of Homo sapiens with 12 samples.

Results

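The RNAs that a fragment of TNIP2 enriched or depleted beyond its purification tag were examined gene by gene. For each gene the change from extract to purified material with the tag alone was subtracted from the same change with the TNIP2 fragment, on the log2(normalized count + 1) scale, and the result is called the difference of enrichments. Genes were taken when at least 3 of the 12 libraries had a normalized count of 10 or more, which kept 14627 of the 25369 genes in the deposited table. Of those kept, 39 passed through a single group, 34 of them through the TNIP2 purified libraries. Median differences were 0.33 in the 237 genes with exactly 3 such libraries and 0.18 in the 361 genes with exactly 2, which were left out.

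All libraries came from HEK293T cells, a transfectable human line of embryonic kidney origin, which the growth text calls HEK293. A plasmid supplied either the Halo tag by itself, which is the Control, or the Halo tag joined to TNIP2 196-346, a stretch of the protein and not the whole of it. Input RNA came from 100 µl of whole cell extract and Pulldown RNA from 90 µl of the material purified through the tag, and ribosomal RNA was then removed. With 3 libraries in each of the 4 groups, the labels name no separate transfections or cultures for them; a p-value here weighs a difference only against the scatter of 3 libraries, and that scatter may be technical. Columns with the letter F were taken as the fragment by elimination, because the other letters match the Control, Input and Pulldown labels. All 9 marker genes of the line were measured, and they summed to 5941 to 12637 normalized counts per library. The markers of blood (2 of 7 measured, CD3E and HBB at 0 in every library), of fibroblasts and endothelium (3 of 8) and of other epithelia (0 of 6, KRT5 at 0) summed to at most 120, 146 and 42.

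TNIP2, also called ABIN2, is an adaptor that binds ubiquitin chains and restrains NF-kB signalling, and it is found in a complex with the kinase MAP3K8 and the precursor protein NFKB1. NF-kB proteins are held inactive by inhibitors such as NFKBIA and, once free, switch on genes of inflammation and survival. In a tag purification the RNA that comes along may be bound by the fusion protein, by its partners, or by the tag and resin, and the tag-alone libraries measure the last of these.

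Recovered depth ran from 3591138 reads (Control Pulldown replicate 1) to 29531627 (TNIP2 Pulldown replicate 2), and 1 read was worth 0.510 to 2.86 normalized counts, with the coarsest steps in Control Pulldown. On the second principal component, which held 11.1% of the variance, TNIP2 Input replicate 3 (54.7) and TNIP2 Pulldown replicate 3 (47.8) stood apart from the other libraries (-25.7 to 2.84). Normalized counts summed to 12639745 to 15074851 in TNIP2 Pulldown and to 10182326 to 11068819 in the other groups. In bulk libraries fewer cells with an RNA and less of it per cell cannot be told apart, and a normalized count is a level relative to other genes, not an amount of RNA.

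RNA levels were spread far more widely between Input and Pulldown with the TNIP2 fragment than with the tag alone. Pulldown minus Input had quartiles of -0.13 and 0.11 over all genes with the tag alone, and of -0.73 and 0.78 with the TNIP2 fragment. In limma, with Benjamini-Hochberg adjustment over all genes tested and calls at an adjusted p under 0.05, 3301 genes (22.6%) had a higher difference of enrichments and 2960 (20.2%) a lower one. At least a 2-fold difference was reached by 2564 of the genes called higher and 2161 of those called lower (17.5% and 14.8% of all genes tested). At least a 4-fold difference was reached by 677 and 378 (4.63% and 2.58% of all genes tested). The libraries of both constructs did not overlap in 2854 of the genes called higher and 2582 of those called lower (19.5% and 17.7% of all genes tested). In such genes every ratio of a Pulldown to an Input library with the fragment lay on the same side of every such ratio with the tag. Among genes called higher the median change was -0.04 with the tag alone and 1.34 with the TNIP2 fragment, and among genes called lower it was 0.00 and -1.26. Without both TNIP2 libraries numbered 3, 4235 genes were called higher and 3865 lower.

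The split between higher and lower depended on the scaling. Higher genes made up 52.7% of calls with the deposited normalization, 48.1% after quantile normalization, 25.7% in a voom fit to library totals (1814 higher, 5245 lower) and 21.5% when each library was centred on ribosomal protein genes (1441 higher, 5276 lower). The median over all genes was 0.02, -0.03, -0.50 and -0.61 in these 4 settings. A direction below is therefore relative to the deposited scaling, and lists are described beside the median of 0.02 over all genes. Counts of a list with ribosomal centring or library totals are to be read beside the counts over all genes in that setting.

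**Figure D1:**
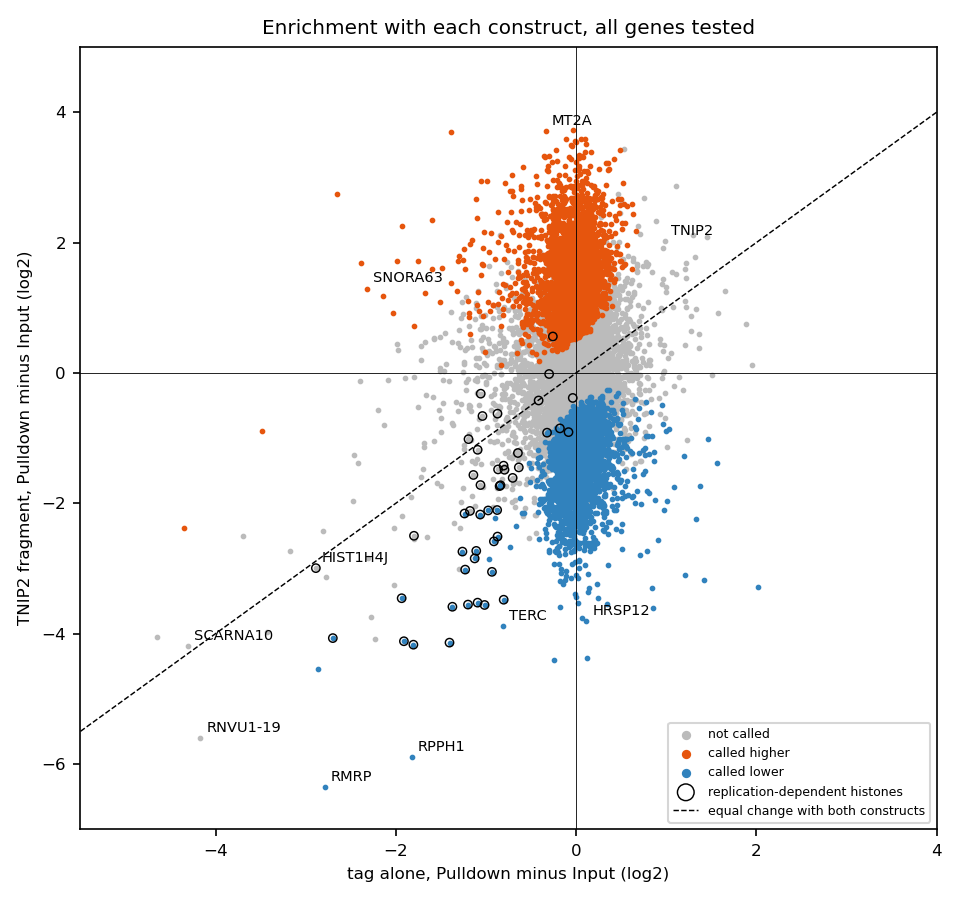
Pulldown minus Input on the log2 scale with the tag alone (horizontal) and with the TNIP2 fragment (vertical), 1 point per gene tested, coloured by its call for the difference of enrichments, with histone genes circled. The cloud is tall and narrow (quartiles -0.73 to 0.78 against -0.13 to 0.11), and genes with low values for the tag alone lie on both sides of the dashed line of equal change, with RMRP (-2.79 and -6.36) below it, SCARNA10 (-4.31 and -4.20) near it and SNORA63 (-2.32 and 1.29) above it.

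TNIP2 itself did not pass the test. Its normalized counts were 278, 304 and 272 in Input and 1472, 309 and 391 in Pulldown with the tag, and 16750, 13318 and 46568 in Input and 51905, 69806 and 193013 in Pulldown with the fragment. All 6 libraries with the fragment lay above all 6 with the tag, and transcripts of the plasmid and of the endogenous gene cannot be told apart. The change from Input to Pulldown was 0.98 with the tag and 2.02 with the fragment, a difference of 1.04 (SE 0.80, limma adjusted p = 0.32). It was 1.74 without Control Pulldown replicate 1, the library with 1472, and 0.48 without TNIP2 Pulldown replicate 3.

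The 12 highest genes by the naming rule changed by -0.73 to 0.05 with the tag alone and were gained with the fragment. They were MT2A, CMTM8, ID2, AUTS2, RPS24, FAM150A, BHLHE40, MRPL34, FAM135A, PLEKHA5, GATA2 and ZIC1, with differences from 4.04 down to 3.52. MT2A, a metallothionein that binds zinc and copper, had 113, 123 and 110 in Input and 77, 120 and 81 in Pulldown with the tag, and 126, 89 and 134 in Input and 1698, 1865 and 1077 in Pulldown with the fragment. Its difference was 4.04 (SE 0.34, limma adjusted p = 1.8e-06), or 16.5-fold. All 3 TNIP2 Pulldown libraries lay far above the other 9. MT1X and MT1F, the other metallothioneins tested, did not pass, with 0.49 and -1.14.

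ID2 encodes a protein that keeps helix-loop-helix factors from binding DNA. Its libraries read 1776, 1651 and 1766 in Input and 1661, 1553 and 1594 in Pulldown with the tag, and 1530, 1338 and 1975 in Input and 21330, 21868 and 15327 in Pulldown with the fragment. The difference was 3.71 (SE 0.24, limma adjusted p = 5e-07), again with TNIP2 Pulldown above every other library. Of the 4 ID genes 3 were called higher, beside 22.6% of all genes. One was ID2, already named above for its high value. The others were ID3 with 2.10 (limma adjusted p = 0.023) and ID4 with 1.46 (limma adjusted p = 0.018), while ID1 did not pass (limma adjusted p = 0.076). The call of ID4 ended without TNIP2 Pulldown replicate 1 (adjusted p = 0.051), and that of ID3 ended on leaving out Control Pulldown replicate 2 or 3, TNIP2 Input replicate 1 or 2 or TNIP2 Pulldown replicate 3 (adjusted p from 0.052 to 0.059). ID1 passed without TNIP2 Input replicate 3 (adjusted p = 0.0017), with library weights (adjusted p = 2.2e-04) and with a replicate block within each construct (adjusted p = 0.0012). With ribosomal centring and in the voom fit to library totals ID2 alone of the 4 was called, and after quantile normalization ID4 had 0.93 (adjusted p = 0.051).

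The other genes at the top had varied roles. GATA2 and ZIC1 are zinc finger transcription factors of development, BHLHE40 is a helix-loop-helix repressor, and AUTS2 acts in neuronal development. GATA2 read 177, 207 and 197 in Input and 198, 187 and 177 in Pulldown with the tag, and 231, 223 and 514 in Input and 2952, 3425 and 3654 in Pulldown with the fragment, a difference of 3.52 (SE 0.35, limma adjusted p = 5.4e-06). TNIP2 Input replicate 3 was the highest Input library for GATA2 and the lowest TNIP2 Input library for BHLHE40, which read 429, 575 and 141 there and 3773, 7250 and 2073 in TNIP2 Pulldown. BHLHE40 had a difference of 3.56 (SE 0.68, limma adjusted p = 7.6e-04).

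The 12 lowest genes by the naming rule were RPPH1, HRSP12, SELM, RMRP, BANF1, SEC11C, DDT, FKBP2, TMEM160, PDZD11, TMEM147 and TMEM256, with differences from -4.07 to -3.09. Some genes that the rule passes over were lower, such as MIR3687 (-4.60) and SNORD88C (-4.50). HRSP12, an enzyme that clears reactive imines, had 544, 523 and 520 in Input and 593, 569 and 551 in Pulldown with the tag, and 450, 379 and 508 in Input and 35, 23 and 36 in Pulldown with the fragment. The difference was -3.91 (SE 0.26, limma adjusted p = 5.8e-07), and the 3 TNIP2 Pulldown libraries lay below the other 9. SELM, SEC11C and FKBP2 encode proteins of the endoplasmic reticulum (ER): a selenoprotein, a catalytic subunit of signal peptidase and a proline isomerase. SELM had 508, 400 and 356 in Input and 576, 548 and 465 in Pulldown with the tag, and 451, 361 and 488 in Input and 38, 26 and 47 in Pulldown with the fragment, a difference of -3.88 (SE 0.31, limma adjusted p = 1.4e-06). SEC11C had a difference of -3.43 and FKBP2 of -3.30, and neither was low with the tag alone, where the changes were 0.14 and 0.35. DDT (-3.39) has a near-identical neighbouring copy, so its reads are uncertain.

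**Figure D2:**
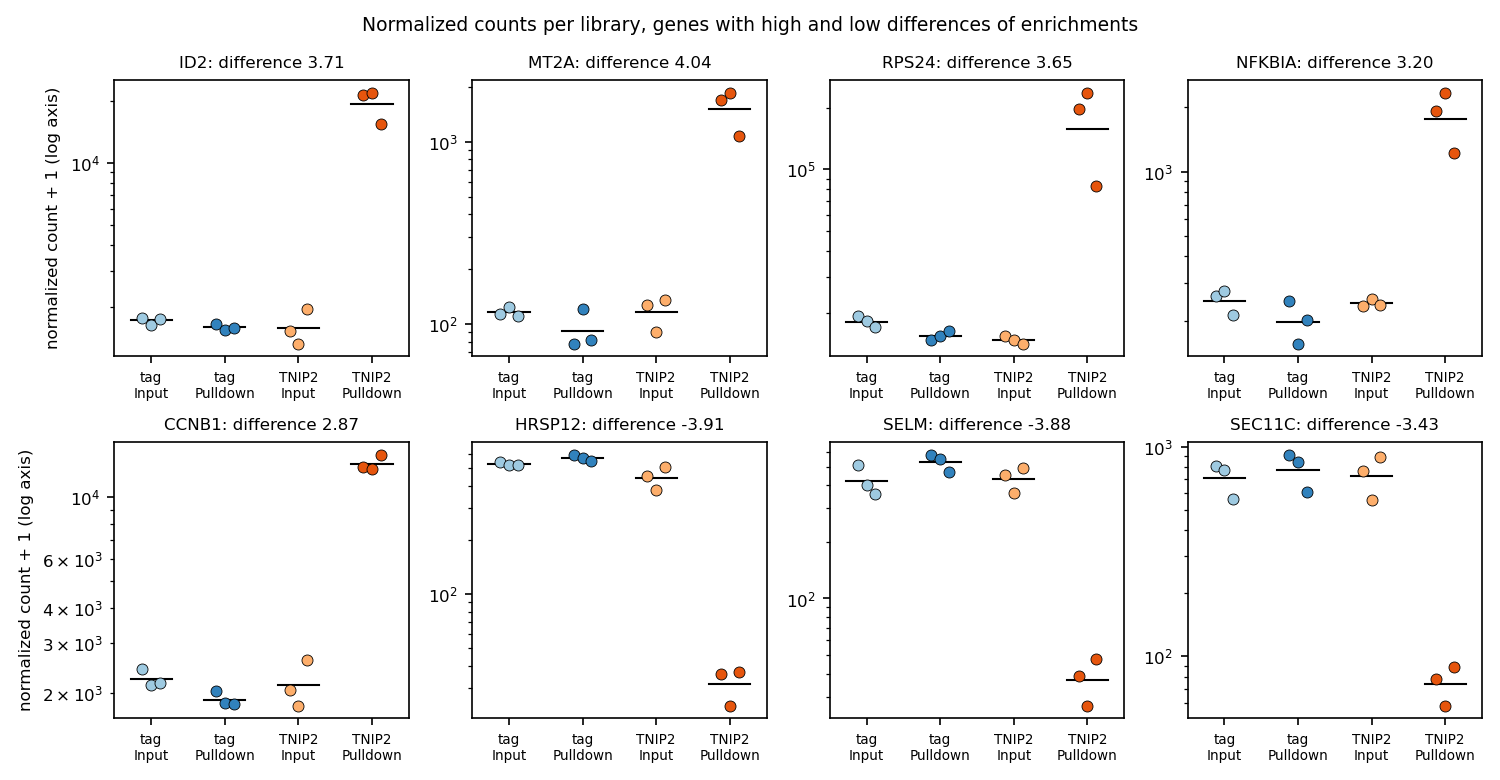
Normalized counts + 1 of 8 genes in every library on log axes that differ between panels and do not start at 0, with 3 libraries per group as points and the group mean of log values as a bar; tag is the Control and TNIP2 the fragment. In each panel the 3 TNIP2 Pulldown libraries stand apart from the other 9, above them for ID2 (15327 to 21868) and below them for HRSP12 (23 to 36).

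Subtracting the tag bore on several small structured RNAs and histones that were low after purification with the tag too. RMRP and RPPH1, the RNA subunits of RNase MRP and RNase P, were low in both purifications but lower with the fragment. RPPH1 had 135033, 92506 and 71766 in Input and 28553, 27641 and 25614 in Pulldown with the tag, and 93096, 106006 and 184019 in Input and 2160, 1066 and 3765 in Pulldown with the fragment. Its change was -1.82 with the tag and -5.89 with the fragment, a difference of -4.07 (SE 0.52, limma adjusted p = 3.5e-05). RMRP changed by -2.79 and -6.36, a difference of -3.57 (SE 0.46, limma adjusted p = 3.3e-05). TERC, the telomerase RNA, had 430, 662 and 624 in Control Pulldown and 81, 78 and 83 in TNIP2 Pulldown from Input values of 910 to 1396, a difference of -3.06 (SE 0.27, limma adjusted p = 2.6e-06). In these 3 RNAs every Control Pulldown library lay between the Input libraries and the TNIP2 Pulldown libraries.

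SCARNA10, SNORD97 and RNVU1-19 were low after both purifications, and their difference of enrichments did not pass the test. They were chosen after their values were seen. SCARNA10, a guide RNA of Cajal bodies, had 431, 236 and 171 in Input and 6, 16 and 18 in Pulldown with the tag, then 429, 204 and 191 in Input and 18, 7 and 17 in Pulldown with the fragment. Its changes were -4.31 and -4.20, and the difference was 0.11 (SE 0.66, limma adjusted p = 0.91), and the purified libraries of both constructs overlapped. SNORD97, a box C/D RNA, changed by -3.43 and -3.98 (difference -0.55, SE 0.55, limma adjusted p = 0.44). RNVU1-19, a variant U1 RNA of a multicopy family whose reads may be shared, changed by -4.17 and -5.61 (difference -1.43, SE 0.85, limma adjusted p = 0.19). That value passed under centring on ribosomal protein genes, under library weights and with Input and Pulldown of a number taken as a pair. SCARNA2, in contrast, was called lower: it changed by -0.18 with the tag and -3.59 with the fragment, a difference of -3.41 (SE 0.44, limma adjusted p = 3.9e-05).

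Replication-dependent histone mRNAs, which end in a stem-loop in place of a poly(A) tail, had negative median changes with both constructs, the larger with the fragment. Of 46 tested, 23 were called lower, where the share over all genes was 20.2%, and 0 higher in limma and in voom with the deposited factors (1 higher at an unadjusted p under 0.05). Their median was -1.03 with the tag, -2.11 with the fragment and -0.90 for the difference. Library weights gave 3 higher and 28 lower, the FPKM values 1 and 22, and limma without the trend 1 and 19. HIST1H4H had 1840, 1526 and 1493 in Input and 407, 508 and 472 in Pulldown with the tag, and 1668, 1903 and 1878 in Input and 113, 82 and 107 in Pulldown with the fragment, and each purified set lay below both Input sets, the fragment's lowest. The difference was -2.36 (SE 0.23, limma adjusted p = 4.7e-06). HIST1H3F and HIST1H3H had -2.68 and -2.55. HIST1H4J, chosen after its values were seen, changed by -2.89 with the tag and hardly more with the fragment, a difference of -0.11 (adjusted p = 0.87). Histone genes are near-identical within a type, so the split of reads among them is uncertain.

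**Figure D3:**
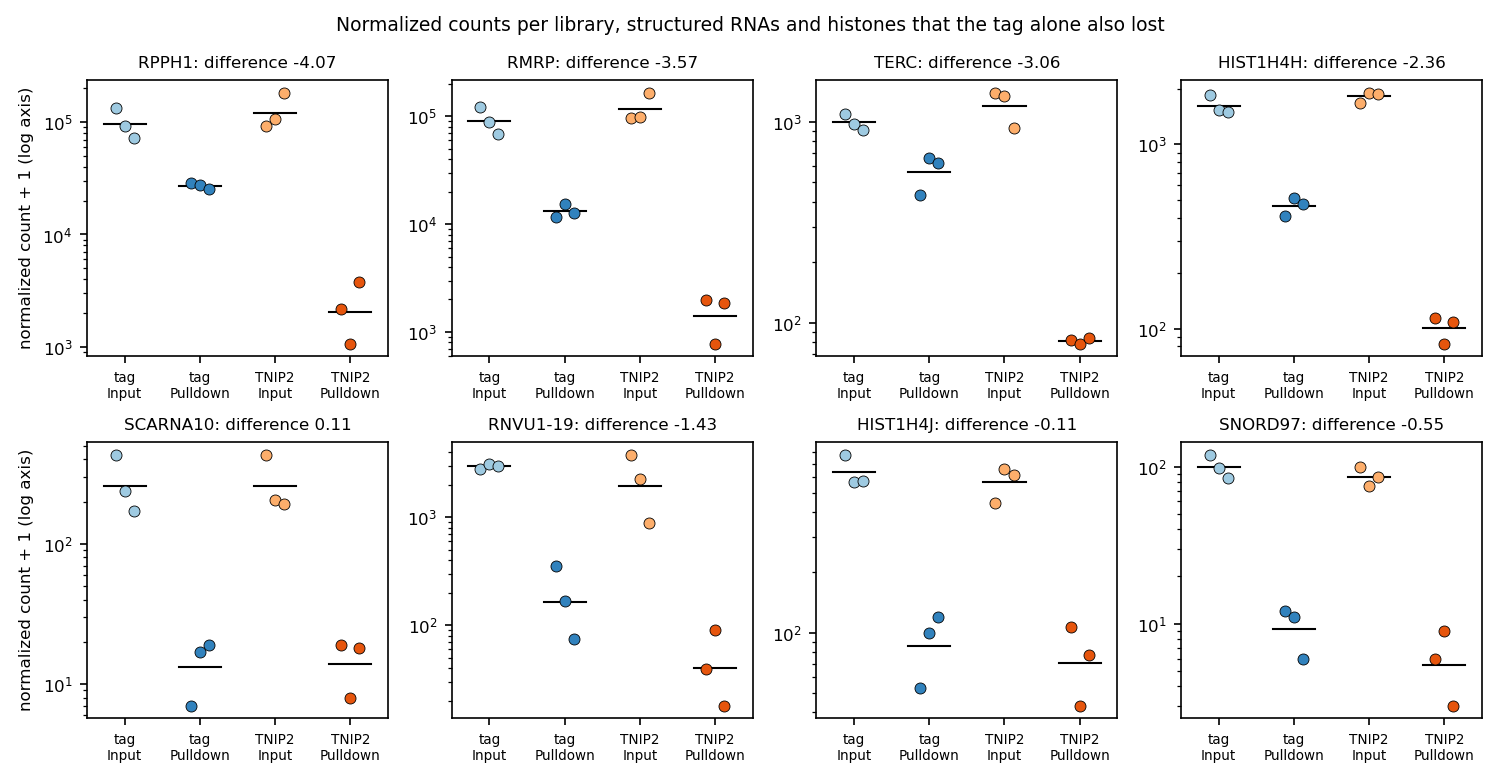
Normalized counts + 1 of 8 structured RNAs and histone genes in every library, on log axes that differ between panels and do not start at 0, with group means of log values as bars. In the top row TNIP2 Pulldown lies below Control Pulldown (RPPH1, 1066 to 3765 against 25614 to 28553), and in the bottom row the difference did not pass the test (SCARNA10, 7 to 18 against 6 to 18).

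Small nucleolar RNAs, which guide chemical modification of other RNAs, included genes called in both directions, in shares near those over all genes (22.6% higher, 20.2% lower) or below them. Among 85 box C/D genes 21 were called higher (24.7%) and 11 lower (12.9%), with a median of 0.22. With a mean of at least 50 normalized counts over all 12 libraries required, 18 were tested, 13 were higher and 1 was lower. That mean includes TNIP2 Pulldown, so the filter itself favours genes that are high there. SNORD30 (3.74) and SNORD28 (2.86) lie in introns of SNHG1, which was itself called higher with 1.98 (limma adjusted p = 1.7e-04), and reads of a host and of the RNA inside it cannot be told apart without strand and fragment data. SNORA63, an H/ACA guide in an intron of EIF4A2, had 126, 67 and 76 in Input and 17, 26 and 10 in Pulldown with the tag, and 79, 78 and 76 in Input and 156, 226 and 199 in Pulldown with the fragment. Its change was -2.32 with the tag and 1.29 with the fragment, a difference of 3.61 (SE 0.44, limma adjusted p = 2.4e-05), while its host EIF4A2 (chosen after its values were seen) had 1.76. SNORA71A went the other way with -3.05 (limma adjusted p = 4.1e-05). Over the 51 box H/ACA genes 11 were higher (21.6%) and 9 lower (17.6%), with a median of -0.25. The higher count was 7 without Control Input replicate 3 or TNIP2 Input replicate 1. It was 6 with TNIP2 Pulldown replicate 2 left out, and the lower count was 5 without Control Input replicate 1. Of 15 small Cajal body RNAs 2 were higher and 3 lower (median -0.73). SCARNA27, 1 of the 2, passed the filter through TNIP2 Pulldown alone, the group where it is high. The 2 became 1 without Control Input replicate 1, Control Pulldown replicate 1 or 3 or TNIP2 Pulldown replicate 2, and the 3 became 5 without TNIP2 Pulldown replicate 3.

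Longer non-coding RNAs included genes called in both directions. Of 660 genes that RefSeq classes as long non-coding, 11.1% were higher and 14.8% lower (median -0.20), beside 23.6% and 20.9% of 13152 protein-coding genes (median 0.03). Levels differ too, and in the lowest of 5 equal bins of Input level 12.6% were called higher and 6.7% lower. Of the 19 non-coding hosts of snoRNAs 6 were higher (31.6%) and 4 lower (21.1%), beside 22.6% and 20.2% of all genes. SNHG6 had 2.38 and SNHG20 had -2.80, with 5319, 5978 and 5778 against 56, 57 and 58 in TNIP2 Pulldown. LINC00657, known as NORAD, an abundant cytoplasmic RNA, had 6218, 6876 and 7008 in Input and 7220, 7692 and 8051 in Pulldown with the tag, and 7121, 7246 and 4500 in Input and 47700, 60439 and 20966 in Pulldown with the fragment, a difference of 2.48 (SE 0.42, limma adjusted p = 3.1e-04). DANCR had -2.52. LINC00998, which RefSeq names SMIM30 and classes as protein-coding, had -3.54. The nuclear RNAs MALAT1 (-0.20, adjusted p = 0.88) and NEAT1 (-1.57, adjusted p = 0.16), chosen after their values were seen, did not pass. Their libraries scattered widely, and MALAT1 read 4180, 21353 and 3471 in TNIP2 Pulldown. NEAT1 passed with TNIP2 Input replicate 3 left out (-2.47, adjusted p = 0.0053), and likewise on dropping TNIP2 Pulldown replicate 2 (-2.22, adjusted p = 0.045), with library weights (adjusted p = 4.1e-04), with ribosomal centring (adjusted p = 0.036) and with a replicate block within each construct (adjusted p = 0.0031).

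Among 303 named antisense RNAs 30 were higher (9.9%) and 52 lower (17.2%), both below the shares over all genes (median -0.22). Ribosomal centring gave 14 and 107 and the voom fit to library totals 19 and 105, and the higher count was 50 without TNIP2 Pulldown replicate 3. The strand setting of the counting is not given in the sources used here, so an antisense RNA and its partner cannot be told apart. The 137 numbered intergenic RNAs gave 12 higher and 16 lower (median -0.30), or 6 and 47 with ribosomal centring. They were listed by symbol and include LINC00998 and LINC00493, which RefSeq classes as protein-coding.

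Of 27 entries named for microRNAs or their hosts 4 were higher (14.8%) and 6 lower (22.2%), beside 22.6% and 20.2% of all genes. The reads are of gene entries in a library of total RNA and not of mature microRNAs. The mature sequences of 4 of the 10 entries called are shown because they identify these entries and share no seed; capitals mark the seed, bases 2 to 8, and the sequences are those of RefSeq (GRCh38.p14).
hsa-miR-663a: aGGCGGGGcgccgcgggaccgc
hsa-miR-3648: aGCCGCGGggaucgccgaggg
hsa-miR-4517: aAAUAUGAugaaacucacagcugag
hsa-miR-1304-5p: uUUGAGGCuacagugagaugug

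MIR663A, MIR3648 and MIR3687 had changes of opposite sign, with 1.21, 0.84 and 1.42 for the tag and -3.10, -3.29 and -3.17 for the fragment. MIR3648 had 30, 42 and 26 in Input and 83, 46 and 51 in Pulldown with the tag, and 36, 22 and 39 in Input and 2, 3 and 2 in Pulldown with the fragment, a difference of -4.13 (SE 0.48, limma adjusted p = 1.7e-05). MIR663A had -4.31 and MIR3687 -4.60. MIR3648 and MIR3687 lie in the spacer of the ribosomal DNA repeat, whose copies can share reads, so these low counts are uncertain. MIR17HG, host of the miR-17-92 cluster and chosen after its values were seen, had 17017, 18098 and 6728 in TNIP2 Pulldown and 1918 to 2966 in the other 9 libraries, a difference of 2.42 (SE 0.39, limma adjusted p = 2.2e-04). MIR4517 had -3.07 (adjusted p = 0.014) from normalized counts of 18 or fewer. MIR1304 had 1.78 (adjusted p = 0.028), with 6, 13 and 10 in Control Pulldown and 18 to 77 elsewhere. The call of MIR1304 ended after thinning to equal depth (0.99, adjusted p = 0.34), with ribosomal centring (1.15, adjusted p = 0.14), in both voom fits, without the filter, and on leaving out Control Input replicate 3, Control Pulldown replicate 1, TNIP2 Input replicate 1 or TNIP2 Pulldown replicate 2.

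In the NF-kB pathway the genes of its inhibitors and of the partners of TNIP2 were among those called higher. Of 18 NF-kB target genes tested 6 were higher (33.3%, beside 22.6% of all genes) and 0 lower in limma and in voom with the deposited factors (1 lower at an unadjusted p under 0.05), with a median of 0.51. Ribosomal centring left 3 called each way, with a median of -0.12 beside -0.61 over all genes. Over all genes that setting called 1441 higher and 5276 lower. The voom fit to library totals gave 4 and 3, and library weights 9 and 3. NFKBIA, the inhibitor that retains NF-kB in the cytoplasm, had 260, 273 and 212 in Input and 246, 155 and 200 in Pulldown with the tag, and 232, 252 and 235 in Input and 1912, 2346 and 1216 in Pulldown with the fragment. The difference was 3.20 (SE 0.32, limma adjusted p = 5.6e-06), and TNIP2 Pulldown lay above all other libraries. TNFAIP3, the ubiquitin-editing enzyme A20, had 227, 257 and 202 in TNIP2 Pulldown and 40 to 62 in the other 9 libraries, a difference of 2.23 (SE 0.30, limma adjusted p = 4.6e-05). NFKB1 had a difference of 1.63 (SE 0.20, limma adjusted p = 2.8e-05) and MAP3K8 of 2.00 (SE 0.34, limma adjusted p = 3.2e-04). TRAF3, a signalling adaptor, had 1.55. Of the 40 pathway components 7 were higher (17.5%, below the 22.6% of all genes) and 3 lower, with a median of 0.18. Ribosomal centring gave 3 and 11 and the voom fit to library totals 4 and 14, so the balance has no direction that holds over the scalings, and the lower count was 5 without TNIP2 Input replicate 3; leaving out TNIP2 Pulldown replicate 3 gave 7. IKBKG, the ubiquitin-binding subunit of the kinase complex, was among the lower genes with -1.10 (adjusted p = 0.012). TNIP1 (0.17, limma adjusted p = 0.69) and RELA (-0.50, limma adjusted p = 0.29) did not pass. RELA was called lower without TNIP2 Pulldown replicate 3 (-0.91, limma adjusted p = 0.0025) and without both TNIP2 libraries numbered 3 (-0.86, limma adjusted p = 0.0019). The same call came with library weights (-0.68, limma adjusted p = 0.0031) and in the voom fit to library totals (-1.08, voom adjusted p = 0.046). IKBKG, TNIP1 and RELA were chosen after their values were seen.

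TICAM1 and KAL1 were also chosen after their values were seen, for the size of their differences. TICAM1, the adaptor of toll-like receptor 3, had 11, 13 and 6 in Input and 6, 2 and 0 in Pulldown with the tag, and 7, 8 and 5 in Input and 29, 34 and 44 in Pulldown with the fragment, a difference of 4.19 (SE 0.82, limma adjusted p = 9.6e-04). KAL1 had 19, 22 and 18 in TNIP2 Pulldown and 0 to 2 in the other 9 libraries. KAL1 passed the filter through TNIP2 Pulldown alone, the group where it is high. Counts this low leave its size imprecise, and its fitted difference depends on the added 1.

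Immediate early genes, which respond fastest to growth factors and stress, were mostly higher where called. Shares over all genes were 22.6% higher and 20.2% lower. Of 36 tested 19 were higher (52.8%) and 0 lower in limma and in voom with the deposited factors (2 lower at an unadjusted p under 0.05), with a median of 1.01. Counts were 10 higher and 1 lower after thinning all libraries to equal depth, 6 and 2 in the voom fit to library totals, 5 and 2 with centring on ribosomal protein genes, 19 and 2 after quantile normalization and 23 and 3 with library weights. The lowest member was FOSL1, a partner of JUN in AP-1 that was chosen after its values were seen, with a difference of -2.25 (SE 0.94, limma adjusted p = 0.066). It read 2 to 15 in the tag libraries and 3 to 28 in those of the fragment. FOSL1 was called lower after quantile normalization, with ribosomal centring, in the voom fit to library totals, with library weights, with either replicate block, and on leaving out Control Pulldown replicate 2 or TNIP2 Pulldown replicate 3. JUN, a subunit of the transcription factor AP-1, had 1799, 1830 and 1784 in Input and 1988, 2003 and 2260 in Pulldown with the tag, and 2002, 2079 and 2562 in Input and 10910, 16148 and 17697 in Pulldown with the fragment, a difference of 2.52 (SE 0.25, limma adjusted p = 4.8e-06). JUNB had 2.03 and IER3 1.76. MYC, chosen after its values were seen, had 7273, 11393 and 3025 in TNIP2 Pulldown and 426 to 1270 elsewhere, a difference of 3.06 (SE 0.60, limma adjusted p = 9.4e-04). FOS, chosen likewise, had 0.30 (adjusted p = 0.70). A list of 14 genes for proteins that bind AU-rich elements, which also holds PUM2, whose protein binds a different element, had 9 higher and 1 lower (median 1.07). KHSRP had 1.40, AUH 1.50 and PUM2 2.13, and the counts were 4 higher and 3 lower both in the voom fit to library totals and with ribosomal centring.

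Genes of mitosis and HOX genes were called higher more often than lower on each scaling tried. Shares over all genes were 22.6% higher and 20.2% lower with the deposited scaling. Among 36 genes of mitosis 19 were called higher and 2 lower (median 0.89), and the 2 became 1 on leaving out any library other than Control Pulldown replicate 1 or TNIP2 Pulldown replicate 2. CCNB1, the cyclin that drives entry into mitosis, had 2419, 2124 and 2160 in Input and 2019, 1831 and 1818 in Pulldown with the tag, and 2037, 1793 and 2623 in Input and 12751, 12617 and 14143 in Pulldown with the fragment, a difference of 2.87 (SE 0.22, limma adjusted p = 1.2e-06). CDCA8 had 2.69 and KIF20A 2.60. Of 40 DNA replication genes 13 were higher and 5 lower (median 0.07), with PCNA at 2.78 and POLD2 at -1.52; the balance turned to 6 and 9 after quantile normalization, 5 and 11 with ribosomal centring and 7 and 11 in the voom fit to library totals. Among 35 HOX genes, which set position along the body axis, 17 were higher and 2 lower (median 0.95), led by HOXC6 with 1042, 1337 and 1136 in TNIP2 Pulldown and 101 to 147 elsewhere. The difference of HOXC6 was 2.87 (SE 0.24, limma adjusted p = 1.7e-06). The lower HOX count was 1 without Control Pulldown replicate 2 or TNIP2 Input replicate 1 or 2; leaving out TNIP2 Input replicate 3 gave 5. With ribosomal centring each of the mitosis and HOX lists had 11 higher and 6 lower. The 418 numbered zinc finger genes gave 96 higher, a share close to the 22.6% of all genes, and 59 lower (14.1%), which became 35 and 127 with ribosomal centring and 51 and 127 in the voom fit to library totals.

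Ribosomal protein genes included some of the highest differences and many calls in both directions, beside shares over all genes of 22.6% higher and 20.2% lower. Of 77 cytosolic ribosomal protein genes 36 were higher and 14 lower (median 0.59), but quantile normalization gave 20 higher and 29 lower with a median of -0.26, so the list has no direction that holds over the scalings. RPS24 had 19167, 18148 and 16983 in Input and 14712, 15431 and 16176 in Pulldown with the tag, and 15290, 14656 and 14130 in Input and 197752, 237089 and 83149 in Pulldown with the fragment, a difference of 3.65 (SE 0.39, limma adjusted p = 9e-06). RPS25 had 3.51 and RPL10A 2.53, while RPL30 had 1653, 1667 and 1684 in TNIP2 Pulldown and 8517 to 12101 elsewhere, a difference of -2.28 (SE 0.19, limma adjusted p = 1.8e-06). These genes have processed copies elsewhere in the genome that can take or lend reads. Of 75 mitochondrial ribosomal protein genes 14 were higher and 40 lower (53.3%), with a median of -0.91. MRPL34 (3.55) and MRPS28 (3.45) were among the highest, and MRPL55 had -2.31. Of 38 translation factors 11 were higher (28.9%), among them EIF1 (2.74), EIF2S2 (2.49) and EIF4G1 (2.16), and 14 lower (36.8%). For hnRNP and SR splicing proteins the counts were 10 higher (31.2%) and 6 lower (18.8%) of 32, with SRSF2 at 2.60 and SRSF9 at -1.91. Quantile normalization turned these counts to 5 and 10, and ribosomal centring to 5 and 11.

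Several lists of metabolism, transport and secretion held more genes called lower than higher, where the shares over all genes were 20.2% and 22.6%. Of 24 cholesterol synthesis genes 13 were lower (54.2%) and 1 higher, with a median of -0.96; centring on ribosomal protein genes gave 20 lower. CYP51A1, a sterol demethylase, had 4500, 3610 and 3179 in Input and 3706, 3342 and 3409 in Pulldown with the tag, and 3611, 2915 and 3333 in Input and 843, 481 and 567 in Pulldown with the fragment, a difference of -2.32 (SE 0.28, limma adjusted p = 1.9e-05). The higher count was 2 on leaving out Control Input replicate 3 and 3 on leaving out TNIP2 Pulldown replicate 3. Among 222 solute carriers, which move small molecules across membranes, 85 were lower (38.3%) and 14 higher, with a median of -0.54. SLC30A9 had 464, 445 and 400 in TNIP2 Pulldown and 2707 to 3222 elsewhere, a difference of -2.57 (SE 0.18, limma adjusted p = 7e-07). SLC38A2, a carrier of neutral amino acids named after its value was seen, had 2.88 in the opposite direction.

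Of 42 genes for folding, translocation and signal peptide cleavage in the ER 16 were lower (38.1%) and 3 higher (median -0.55). Shares over all genes were 20.2% lower and 22.6% higher. SRP9, of the signal recognition particle, had -2.30, whereas the chaperone HSP90B1 had 63781, 58923 and 41195 in TNIP2 Pulldown and 4818 to 8108 elsewhere, a difference of 3.01 (SE 0.30, limma adjusted p = 5.5e-06). Among 16 selenoproteins, whose mRNAs carry a structure that recodes a stop codon, 11 were lower (68.8%) and 1 higher (6.25%), with a median of -1.26. The gene called higher was SELK, with 2.40, beside SELM with -3.88 and SEP15 with -1.81. Of 76 oxidative phosphorylation subunits 32 were lower (42.1%) and 21 higher (27.6%) (median -0.50), with COX5A at -2.83 and ATP5I at 3.17. Of 18 glycolysis genes 4 were lower (22.2%, near the share over all genes), among them TPI1 with -1.99, and 0 higher in limma, in voom with the deposited factors or at an unadjusted p under 0.05 (median -0.50). With library weights 2 glycolysis genes were higher and 10 lower. The lower count fell to 1 on leaving out Control Input replicate 3. It was 2 on leaving out Control Input replicate 2, Control Pulldown replicate 1 or 2 or TNIP2 Pulldown replicate 2. Leaving out TNIP2 Pulldown replicate 3 gave 8.

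Stress and death genes were called in both directions, beside shares over all genes of 22.6% higher and 20.2% lower. Of 43 proteasome subunits 9 were higher (20.9%, near the share over all genes), including PSMA7 (3.16) and PSMC6 (2.53). Another 13 were lower (30.2%), including PSMB5 (-1.91). Of 19 cytosolic heat shock genes 7 were higher (36.8%) and 3 lower (15.8%). HSP90AB1 had 2.17, and HSPA1B, which shares reads with a near-identical copy, had 2.88. Among 17 genes of the BCL2 family 6 were higher and 6 lower (35.3% each way). BCL2L11 and BBC3, which encode the death-promoting proteins BIM and PUMA, had 3.26 and 2.09, whereas BAX, which forms pores in the mitochondrial membrane, had -1.81 and BAK1, named after its value was seen, -2.03. Of 16 integrated stress response genes 4 were higher and 4 lower, with CEBPB at 2.41 and ATF4 at -1.15. Each of these 4 became 2 without TNIP2 Input replicate 1, the higher also without Control Pulldown replicate 3 and the lower also without Control Pulldown replicate 1 or TNIP2 Input replicate 2. Of 20 interferon-stimulated genes 3 were higher and 6 lower, with IFI6 at -1.82 and ISG15 at -1.70. The 3 became 1 without Control Input replicate 3 or TNIP2 Pulldown replicate 2, and the 6 became 3 without Control Input replicate 1 or 2 or Control Pulldown replicate 2.

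**Figure D4:**
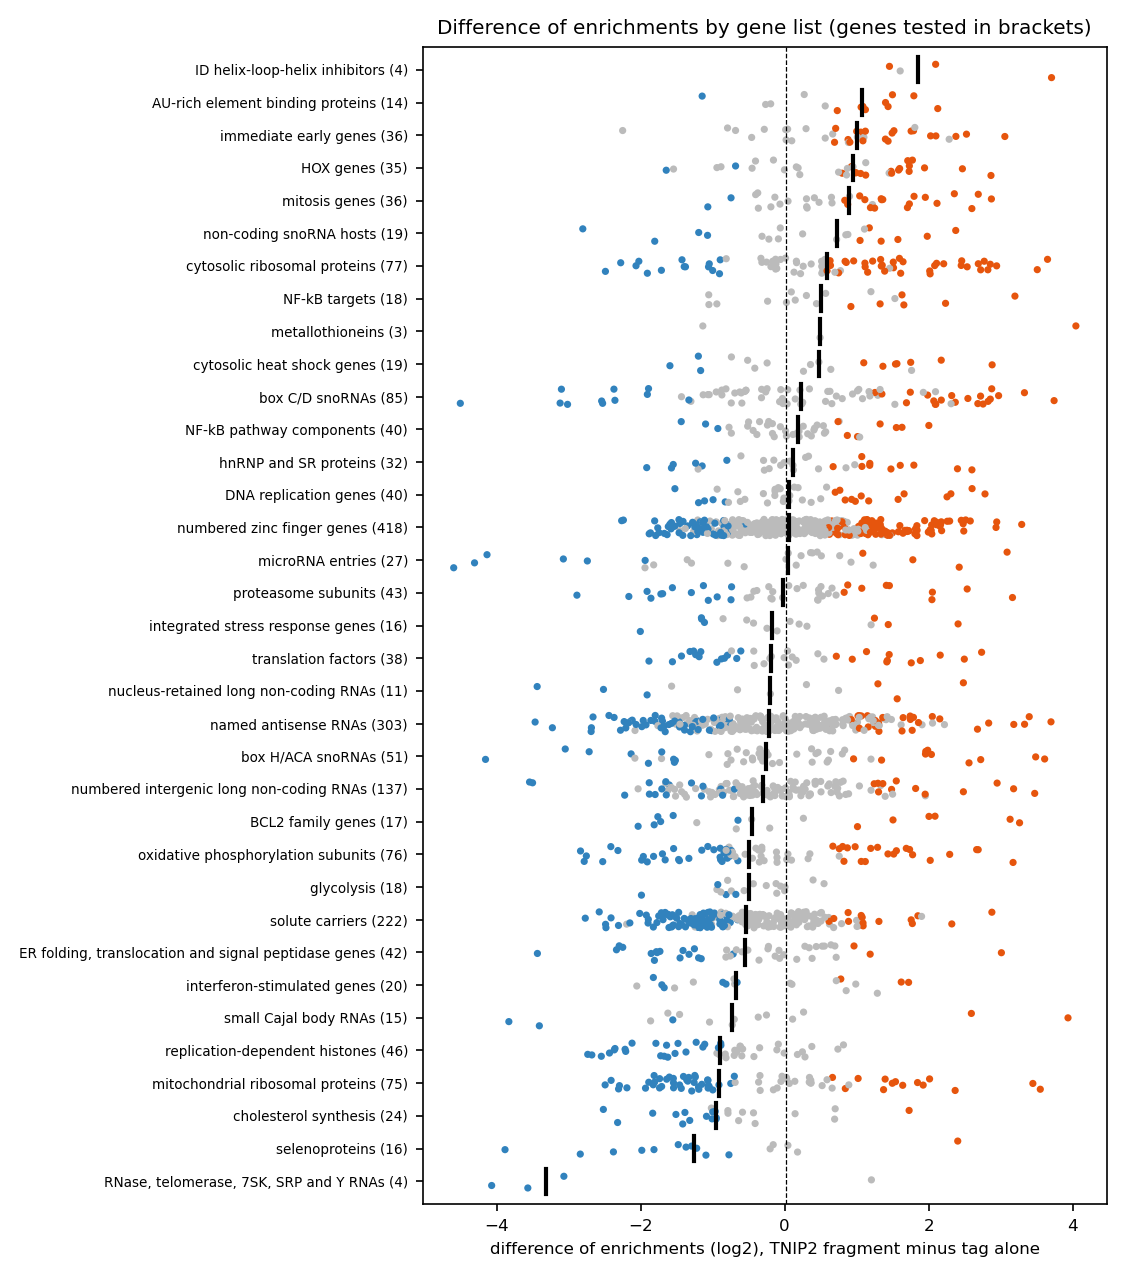
Difference of enrichments (log2, horizontal) of every gene tested in 35 lists, ordered by the list's median (black bar), with genes called higher in orange, called lower in blue and not called in grey, and the median over all genes as a dashed line. Most lists hold genes called in both directions; histones (median -0.90) have calls in the lower direction alone and immediate early genes (median 1.01) in the higher direction alone on this scaling, their lowest member, FOSL1 (-2.25), being called lower on several others.

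Recovered exonic length varied with the difference of enrichments. Such lengths are estimates, and in simulated data 76.15% of them were exact. The simulated lengths spanned a narrower range than the recovered ones, so the longest were not checked. Over 12802 protein-coding genes with a recovered exonic length, Spearman's rho between length and the difference was 0.20, a description across genes, which are not independent replicates and share the same 12 libraries. In the shortest of 5 equal bins (273 to 1943 bases) 21.5% of genes were called higher and 32.4% lower, with a median of -0.27. In the longest (5704 to 93200 bases) 35.2% were higher and 11.2% lower, with a median of 0.45. With the tag alone the medians of these bins were -0.06 and 0.06, and with the TNIP2 fragment -0.30 and 0.51. Short genes were present on both sides: the 12 lowest genes by the naming rule had exonic lengths of 268 to 1246 bases, but MT2A has 419, MRPL34 968 and CMTM8 1170. Whether length or another property of these genes goes with the difference was not tested.

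**Figure D5:**
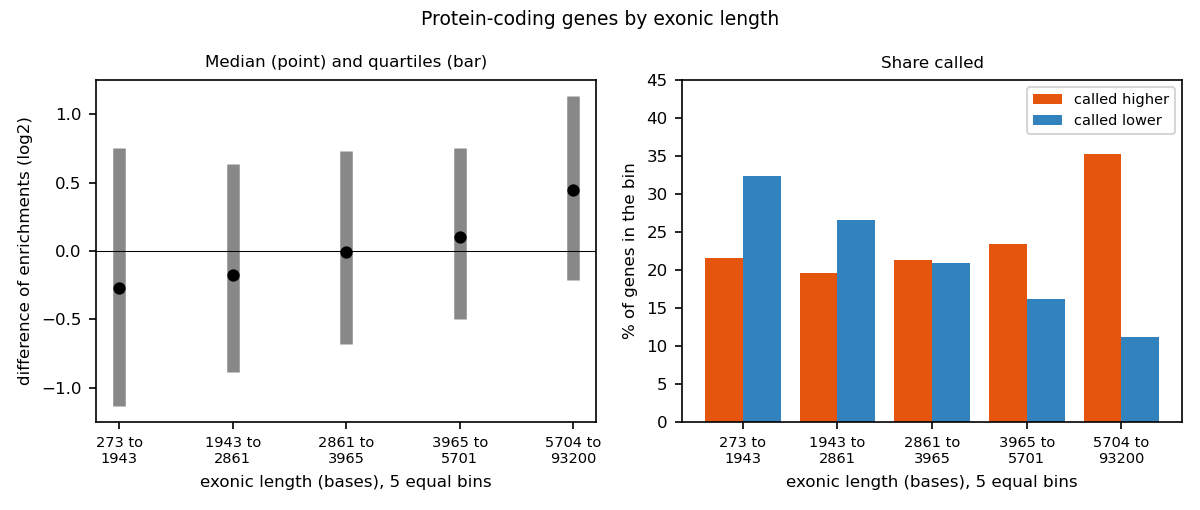
Protein-coding genes in 5 equal bins of exonic length, with the median and quartiles of the difference of enrichments (left) and the percent of genes called in each direction (right, bars from 0). The median runs from -0.27 in the shortest bin to 0.45 in the longest, and the share called lower from 32.4% to 11.2%.

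The common reference genes GAPDH and ACTB had negative differences that did not pass the test. GAPDH read 9535, 8314 and 16868 in TNIP2 Pulldown and 17263 to 24025 elsewhere, a difference of -0.74 (SE 0.31, limma adjusted p = 0.068). ACTB had -0.56 (SE 0.27, limma adjusted p = 0.11). Both were chosen after their values were seen. GAPDH was called lower without TNIP2 Pulldown replicate 3 (-1.05, adjusted p = 6.2e-04) and ACTB without it (-0.68, adjusted p = 0.035) or without TNIP2 Input replicate 3 (-0.70, adjusted p = 0.041), and both were called lower after quantile normalization, in the voom fit to library totals and with ribosomal protein genes as the centre.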

How the data were processed

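RNA from 12 libraries of HEK293T cells was measured by sequencing. The authors deposited normalized counts (treated as a score, since the values are whole numbers after scaling) and FPKM values, by gene symbol. Per the submitters' processing notes, TopHat2 2.0.14, DESeq2 1.6.3 and the build hg19 were used. The counter of reads, its strand setting and its annotation are not stated in the sources used here. The ratio of both deposited tables gave whole reads and exonic length, and at least 98.7% of low values in each library lay within 0.1 of a whole read.

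Genes past the filter (10 or more normalized counts in 3 libraries or more) were fitted as log2(normalized count + 1), which understates changes of low genes, in limma 3.58.1 (R 4.3.3; lmFit, eBayes with trend, 8 residual degrees of freedom). All tests are two-sided, and p-values were adjusted by Benjamini-Hochberg over all 14627 genes. The fit and the recovery of reads were tested on simulated data, where 98.33% of reads and 76.15% of lengths were recovered exactly. RefSeq matched 14300 of these genes and gave gene classes.

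The naming rule took TNIP2, then the 12 highest and 12 lowest called genes whose libraries do not overlap. In these genes the highest group averages 100 or more and the groups other than the lowest average 10 or more. The rule passed over unnamed identifiers, microRNAs, snoRNAs, small Cajal body RNAs and numbered intergenic RNAs. For each list it took at most 3 members by smallest p. The members and lists were chosen with earlier results of these data known. Alternatives covered normalization, the pseudocount, the filter, the FPKM table, recovered reads, equal depth, the variance model, replicate blocks and each library left out.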

Additional observations from a re-analysis of the deposited data

Results flagged for a closer look

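The change from Input to Pulldown differed between the constructs, by the interaction term in limma, for 3301 genes with a higher and 2960 with a lower value for the TNIP2 fragment than for the tag alone. Those genes had median differences of enrichments of 1.39 and -1.28.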

How the results depend on the processing

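Counts of genes called higher and lower stayed within 1.5 times those reported in every alternative except 2: centring on ribosomal protein genes (1441 higher, 5276 lower) and voom with library totals (1814 higher, 5245 lower). Both lower the median of all genes. Leaving out each library gave 2857 to 3834 higher and 2497 to 3411 lower. Of 6261 genes called, limma called 1 in the opposite direction under quantile normalization and none under the other alternatives run. Relative to all genes, the median of cytosolic ribosomal proteins turned to -0.23 under quantile normalization, that of hnRNP and SR proteins to -0.38 and that of DNA replication genes to -0.18. The median of box H/ACA snoRNAs turned to 0.92 under the stricter filter, which tests fewer genes. The mean used by that filter includes TNIP2 Pulldown, so it favours genes that are high there. The H/ACA median turned to 0.037 without both TNIP2 libraries numbered 3, an alternative chosen after seeing the data. That of NF-kB pathway components turned to -0.033 in the last setting. Where not stated, the cause was not tested. Same-numbered Input and Pulldown libraries had deviations correlated at 0.074 to 0.077 in Control and 0.369 to 0.497 with TNIP2. By that measure the numbers do not pair the libraries of the tag. With TNIP2 both libraries numbered 3 stood apart on the second principal component. Deviations are from a mean of 3 libraries, so that shift alone can correlate numbers 1 and 2, and their pairing is not settled. The comparison, which needs both constructs, was fitted without a block. The replicate block gave 3523 higher and 3147 lower, and the block within each construct 4103 and 3654. Depth limits the low genes most in Control Pulldown, and thinning to equal depth left 2858 higher and 2745 lower.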
